A study of Yarrowia lipolytica with 6 samples.

Results

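Among the protein-coding transcripts of the oil yeast Yarrowia lipolytica, 86 of 6447 (1.33%) stood at least 8 times higher in a strain without the kinase Snf1 than in its parent. They were chosen on these same libraries. CPM, a transcript's counts scaled to a library total of 1000000, were averaged over the 3 libraries of each strain, and 0.1 CPM was added to both means. A transcript was kept when its deletion mean was at least 5 CPM and at least 8 times the wild type mean. The values used for this choice are therefore described below without a test. They are relative amounts, so a rise in CPM cannot be told apart from a loss of other RNA. Whole cultures were sequenced, so more cells making an RNA and more RNA per cell cannot be told apart either.

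The parent, CXAU/AI, is labelled wild type, and ∆Snf1 is labelled as the mutant, made by homologous recombination. Each strain had 3 libraries, titled as biological replicates, and the number of deletion clones behind them is not given in the sources used here. Cells from 48 h precultures (SG medium with uracil) were started at an OD of 0.05, cultured for 24 h at 30 °C and 220 rpm, washed, and kept in 2% n-decane with 1% uracil for 1 h. Both strains went through these steps, with 0.1% Triton-X added at harvest, so levels before decane were not measured. The wild type libraries held 33835106 to 38054417 counts, the deletion libraries 32315239 to 37094343. The Snf1 transcript (YALI0_D02101g) held 3644, 3418 and 2546 counts in the wild type libraries and 0 counts in each deletion library.

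Snf1 is the yeast member of the AMP-activated protein kinase family. In baker's yeast it is needed to switch on genes that glucose represses, and cells without it grow poorly on other carbon sources. Yarrowia lipolytica is known for growth on alkanes and fats, which makes the response of its genes to a missing Snf1 of interest in a medium whose added carbon is an alkane.

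None of the 86 transcripts carries a gene name or a product in the annotation used here, so they are given by identifier and no role is assigned. The count files name transcripts by RefSeq accession. For 51 of them a YALI0 locus tag could be tied from the authors' deposited table through matching mean, fold change and standard error, and these are called by that tag. The other 35 are called by accession. By accession, 66 matched a gene of the RefSeq assembly of strain CLIB89(W29), a share of 76.7%, while 90.2% of all coding transcripts (5814) matched. A tag or a match was found for 71. A prepared list of 10 tags for secreted hydrolases and for the uptake and phosphorylation of hexoses had 1 tag in the authors' deposited table, YALI0_C06424g, listed there at a log2 fold change of 1.46 (adjusted p = 0.0109). It was not tied to a count row, so none of the 10 could be placed among the 86.

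The group was low rather than silent in wild type, with 22 transcripts under 1 CPM and 64 above it. The 22 reached 5.67 to 163 CPM in the deletion with a median of 10.3. Another 31 had wild type means from 1 to 10 CPM and reached 11.5 to 887 CPM, with a median of 48.4. A further 26 lay between 10 and 100 CPM in wild type and reached 88.5 to 1416 CPM, with a median of 331. The last 7 already stood above 100 CPM in wild type and rose to between 1021 and 12759 CPM, with a median of 2731. The values go against calling the 86 switched on. Even the 22 under 1 CPM had counts in wild type, up to 64 in a library, and 1 of them, XM_501465.1, had a wild type library at 0 counts. Over all 86, the median level was 3.97 CPM in wild type and 73.6 CPM in the deletion.

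**Figure D1:**
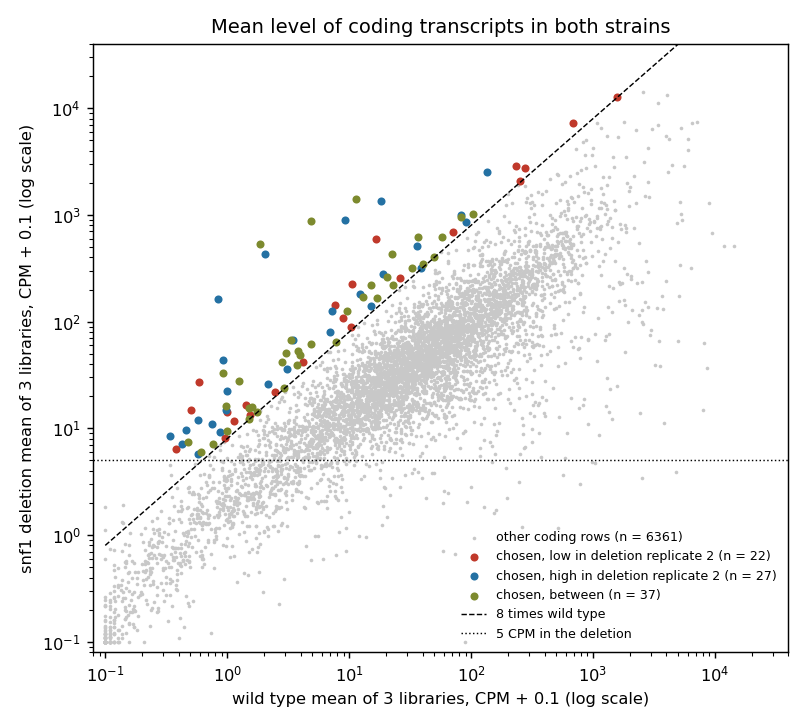
Mean CPM + 0.1 of each coding transcript in wild type (horizontal axis, log scale) and in the deletion (vertical axis, log scale), with all other transcripts in grey and the 86 chosen ones coloured by how deletion replicate 2 compares with replicate 1, and lines at the limits of the rule. The chosen transcripts span wild type means from under 1 CPM to 1562 CPM, and 45 of them stay under 100 CPM in the deletion.

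The ratios were not evenly spread. The median ratio was 12.6. It lay between 8 and 16 for 57 transcripts, between 16 and 32 for 18 and between 32 and 64 for 4. The remaining 7 lay above 64, with a gap between 47.7 and 74.6 and a highest value of 289.5.

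No wild type library of those 7 was above 24.2 CPM, and no deletion library was below 89.0 CPM. YALI0_D04356g had the largest ratio, with 2.19, 1.45 and 1.64 CPM in wild type replicates 1 to 3 and 389.7, 600.3 and 622 CPM in the deletion replicates. YALI0_D02453g resembled it, with 4.73, 5.33 and 4.23 CPM against 547, 896 and 1171 CPM, a ratio of 179. YALI0_B04202g stood at 10.6, 13.7 and 9.47 CPM against 1260.2, 1317 and 1672 CPM, a ratio of 125. Among the deletion libraries of these 3 the coefficients of variation (SD as a percent of the mean) were 23.9%, 35.9% and 15.7%.

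In the other 4 the coefficients of variation ran from 39.5% to 77.0%. Deletion replicate 1 was the lowest deletion library in all 7. YALI0_F25993g went from 1.39, 2.44 and 1.99 CPM to 233, 724 and 337 CPM, a ratio of 211. YALI0_A19228g was the only one of the 7 with a wild type mean under 1 CPM, at 0.798, 0.263 and 1.15 CPM, and it reached 89.0, 205 and 197 CPM, a ratio of 196. Its wild type values rested on 27, 10 and 42 counts. YALI0_B20328g had 10.2, 6.46 and 10.6 CPM in wild type and 402, 1429.5 and 829 CPM in the deletion, a ratio of 96.8. YALI0_B23452g had 7.86, 24.2 and 21.9 CPM and then 337, 2414 and 1298 CPM, a ratio of 74.6. The smallest margin of the 7 was that of YALI0_B23452g, whose lowest deletion library stood 13.9 times above its highest wild type library.

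The next 5 by ratio followed, and 4 of them had wild type means under 1 CPM. YALI0_E10219g went from 0.946, 0.683 and 0.819 CPM to 20.6, 42.2 and 68.0 CPM, a ratio of 47.7. XM_002143031.1 went from 0.414, 0.342 and 0.710 CPM to 27.0, 8.73 and 44.8 CPM, a ratio of 45.8, on 13 to 26 counts per wild type library. YALI0_B07898g went from 1.39, 0.420 and 0.655 CPM to 27.6, 31.2 and 40.0 CPM, a ratio of 35.9. In these 3, as in all 86, each deletion library lay above all wild type libraries. The choice nearly fixes that order, and 30.8% of the coding rows tested had it. YALI0_E08387g stood higher, at 11.6, 8.99 and 29.3 CPM in wild type and 674, 237 and 859 CPM in the deletion, a ratio of 35.3. XM_499886.1 closed the list with 0.650, 0.420 and 0.136 CPM against 23.5, 7.57 and 13.0 CPM, a ratio of 29.4 on 5 to 22 counts per wild type library.

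Ranked by deletion CPM, which grows with transcript length as well as with level, 9 other transcripts came to the front. YALI0_E31031g had the highest CPM, at 1432, 522 and 2733 CPM in wild type and 21106.5, 4380.4 and 12789.7 CPM in the deletion, a ratio of 8.17. YALI0_B04114g followed with 636, 256 and 1159.7 CPM against 11785, 2564 and 7510.4 CPM, a ratio of 10.7. In both, replicate 2 was the lowest library of its strain, and deletion replicate 2 of YALI0_E31031g stood only 1.60 times above wild type replicate 3.

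The next 2 by CPM and the sixth have consecutive accessions and shared that shape, replicate 2 being the lowest library of each strain. XM_002143003.1 had 213, 81.4 and 399 CPM in wild type and 3704, 920.1 and 3961 CPM in the deletion. XM_002143002.1 had 266, 108 and 452 CPM against 3211, 1249.9 and 3732 CPM. XM_002143001.1 had 219, 173 and 356 CPM against 3119, 843 and 2232 CPM. Their ratios were 12.4, 9.92 and 8.27. XM_002143002.1 and XM_002143003.1 lie beside each other in the count files.

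YALI0_F25113g, next in deletion CPM after XM_002143002.1, had another shape. It stood at 78.3, 159 and 169.6 CPM in wild type and at 687, 2859.8 and 3949.7 CPM in the deletion, a ratio of 18.4, with replicate 1 lowest in both strains. YALI0_E07271g had 71.0, 130.3 and 43.9 CPM against 703, 1597 and 727 CPM, a ratio of 12.3. Replicate 2 was its highest library in both strains. YALI0_D24431g was even across the deletion libraries, with a coefficient of variation of 11.2%, and had 132, 113 and 66.9 CPM against 1146, 922 and 996 CPM, a ratio of 9.83. XM_501879.2 had 81.5, 60.9 and 103 CPM against 762, 1230.3 and 876 CPM, a ratio of 11.7. YALI0_B04202g, YALI0_B23452g and YALI0_B20328g complete the 12 highest, and they alone are also among the 12 largest ratios.

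**Figure D2:**
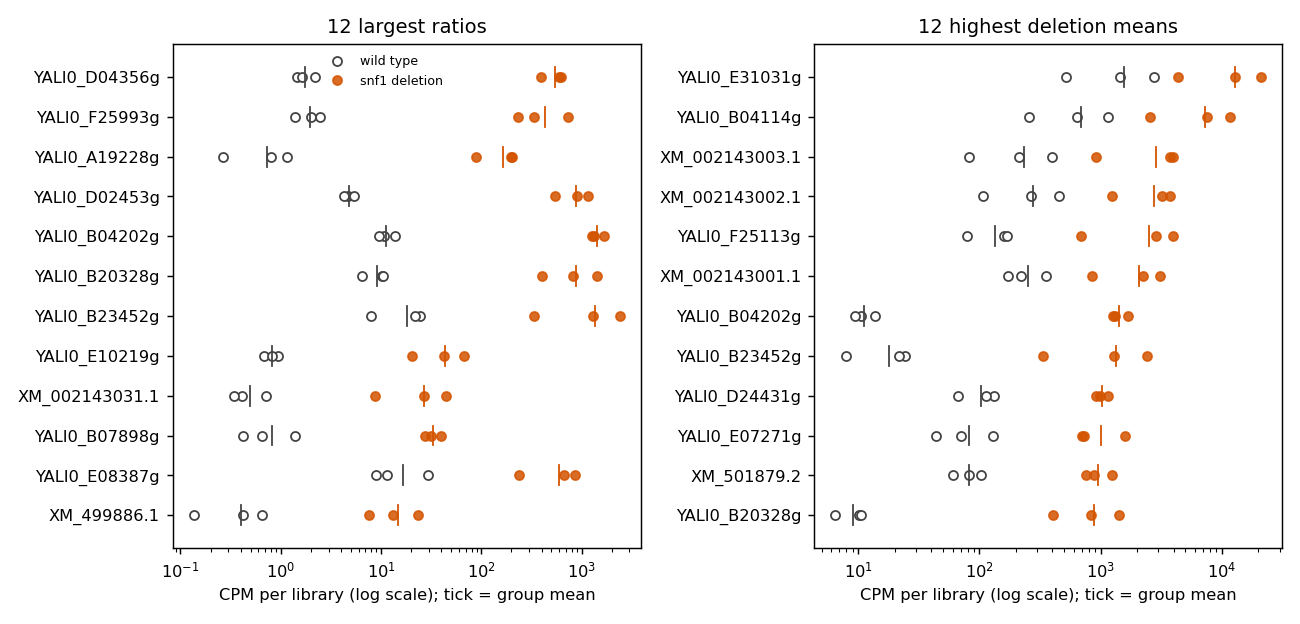
CPM of each library (log scale) for the 12 transcripts with the largest ratio and the 12 with the highest deletion mean, wild type and deletion in separate colours, with a tick at each group mean of n = 3 libraries. The groups do not overlap in any panel row, as in all 86 chosen transcripts and in 30.8% of the coding rows tested. The spread within the deletion is widest for transcripts such as YALI0_B23452g (337 to 2414 CPM).

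Together the 86 transcripts took up 0.386%, 0.255% and 0.631% of all counts in the wild type libraries and 5.75%, 3.39% and 5.38% in the deletion libraries. The means were 0.424 ± 0.191% and 4.84 ± 1.27% (SD, n = 3 each). YALI0_E31031g and YALI0_B04114g held much of this, with 3.29%, 0.694% and 2.03% of all counts in the deletion libraries, or 57.2%, 20.5% and 37.7% of the counts of the whole group. The lower sum in deletion replicate 2 came with a lower share of these 2 transcripts. The 76 transcripts outside the 10 highest by CPM summed to 0.0886 ± 0.00856% in wild type and 1.34 ± 0.259% in the deletion (SD, n = 3 each), a sum that was lowest in deletion replicate 1.

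The transcripts that StringTie assembled from the reads moved between libraries in a like order. They held 7.86%, 5.78% and 9.42% of counts in wild type and 22.4%, 14.7% and 20.7% in the deletion, with replicate 2 lowest in each strain. The coding rows as a whole held 92.0%, 94.1% and 90.4% of counts in wild type and 77.2%, 85.1% and 78.9% in the deletion. These are shares of the same total, so more StringTie-assembled RNA and less coding RNA cannot be told apart. The part of this shift between shares in the levels above was not tested. With CPM computed over coding rows alone, the rule would keep 112 transcripts, among them all 86. With TMM scaling it would keep 60, all of them among the 86. TMM scaling sets the median log2 fold change of all tested features at 0.04, where scaling to the library total alone gives 0.40.

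The ranks above are by CPM and do not allow for length. Levels per kilobase were computed for the 66 transcripts whose length could be read from the CLIB89(W29) annotation. Their lengths ran from 201 to 5721 bases with a median of 1198.5, close to the 1284 of all matched coding transcripts. In CPM per kilobase their median was 5.38 in wild type and 80.4 in the deletion, where all matched transcripts had medians of 21.6 and 22.9. The rule favours low wild type and high deletion values, so these places follow in part from the choice. Of the 66, 53 were below the wild type median, and 36 of those were above the median in the deletion. Another 17 stayed below in both strains, and 13 were above in both. Per kilobase, YALI0_B04114g was the highest in both strains, at 1520.1 in wild type and 16192 in the deletion, ahead of YALI0_E31031g at 1404 and 11463.5. XM_500729.1 was the lowest in wild type at 0.247, and XM_502529.2 the lowest in the deletion at 4.25.

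The replicates of these transcripts scattered widely. The median coefficient of variation over the 3 deletion libraries was 44.3%, and it was 21.3% for the 4805 other coding transcripts with at least 5 CPM in the deletion. In wild type the median of the 86 was 43.7%, and that of the others was 29.03%. At wild type levels, 22 of the 86 had under 1 CPM and few counts. Of the 86, 72 lay above the deletion median of the others. The transcripts were chosen on means of these same libraries, and the part of that choice in their scatter was not tested.

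YALI0_B16852g had the widest scatter, a coefficient of variation of 104%, with 1.00, 0.736 and 0.955 CPM in wild type and 6.74, 48.9 and 11.1 CPM in the deletion. YALI0_A03421g had 3.93, 2.63 and 3.57 CPM against 17.5, 137 and 47.3 CPM, a coefficient of 92.5%. XM_502880.1 had 0.325, 0.368 and 0.382 CPM against 1.59, 18.0 and 9.41 CPM, a coefficient of 84.8%. In these 3 the wild type libraries were close together, and deletion replicate 2 was the highest and replicate 1 the lowest. YALI0_B23452g, at 77.0%, had the same order in the deletion. XM_500933.1, at 73.2%, had 1.57, 5.83 and 1.61 CPM against 6.12, 56.1 and 46.2 CPM, so that its lowest deletion library was 1.05 times its highest wild type library. At the other end, YALI0_D19646g had 26.7, 27.9 and 28.7 CPM in the deletion, a coefficient of 3.52%, after 1.63, 0.420 and 1.42 CPM in wild type.

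In all 86 transcripts the lowest deletion library was above the highest wild type library, an order that the choice nearly fixes. Among the 5613 coding rows tested, 30.8% had it. The margin, taken with 0.1 CPM added to both libraries, differed from transcript to transcript. It was at least 8 times for 23, at least 2 times for 81, and had a median of 5.27. The 5 under 2 times were XM_500933.1 at 1.05, YALI0_F06468g at 1.12, YALI0_E31031g at 1.60, XM_506056.1 at 1.68 and YALI0_C08349g at 1.94. XM_506056.1 had 6.18, 127 and 15 CPM in wild type and 328, 213 and 675 CPM in the deletion, so its wild type mean rested on replicate 2. YALI0_F06468g was alike, with 18.4, 81.3 and 17.4 CPM against 91.2, 526 and 328 CPM.

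Sorted by deletion replicate 2 over deletion replicate 1, with a limit of 2 times chosen after the values were seen, the transcripts fell into 3 profiles. In 22 of them (25.6%) replicate 2 was at most 0.5 times replicate 1, in 27 (31.4%) it was at least 2 times replicate 1, and 37 lay between. Of the other coding transcripts with at least 5 CPM in the deletion, 6.47% had the low profile and 13.0% the high one. Deletion replicate 3 was the lowest deletion library for 1 of the 86 and the highest for 35, where the shares among those other transcripts were 21.1% and 18.6%. Replicate 1 was the lowest for 46 of the 86 and for 42.6% of the others.

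The low profile was seen in wild type too. Replicate 2 was the lowest wild type library for 20 of its 22 transcripts, with a median of 0.50 times replicate 1. Among all other coding transcripts with at least 5 CPM in the deletion, replicate 2 was the lowest wild type library for 53.0%. Among other coding transcripts with the low profile, that share was 65.6%. It was 7 of 27 in the high profile, where the other coding transcripts had 44.4%, and 21 of 37 between. The labels do not say that libraries with one number were handled together, and over coding rows the deviations of same-numbered libraries correlated at 0.02, 0.12 and 0.08.

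Of the 10 transcripts with the highest deletion CPM, 5 belong to the low profile, namely YALI0_E31031g, YALI0_B04114g, XM_002143001.1, XM_002143002.1 and XM_002143003.1. Its 22 transcripts summed to 0.293%, 0.122% and 0.535% of counts in wild type and to 4.58%, 1.10% and 3.32% in the deletion. The high profile, with YALI0_F25993g, YALI0_B20328g, YALI0_B23452g and YALI0_F25113g, summed to 0.0377%, 0.0662% and 0.0421% and then to 0.368%, 1.36% and 0.999%. The profile between, with YALI0_D04356g, YALI0_D02453g and YALI0_B04202g, summed to 0.0552%, 0.0667% and 0.0538% and then to 0.796%, 0.932% and 1.06%. The sum of each profile was higher in every deletion library than in any wild type library. That order is set by the same order in each of the 86 transcripts, which the choice nearly fixes. The sum of the low profile follows the share of StringTie-assembled transcripts in its order of libraries within each strain. YALI0_E31031g and YALI0_B04114g held much of that sum, with 3.29%, 0.694% and 2.03% of counts in the deletion. Not all transcripts of the profile had this order, and XM_002143003.1, for example, was highest in deletion replicate 3. The part of the StringTie share in the profile was not tested. The low profile also held more transcripts without a match in CLIB89(W29), 10 of 22, than the high profile with 2 of 27 or the one between with 8 of 37.

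**Figure D3:**
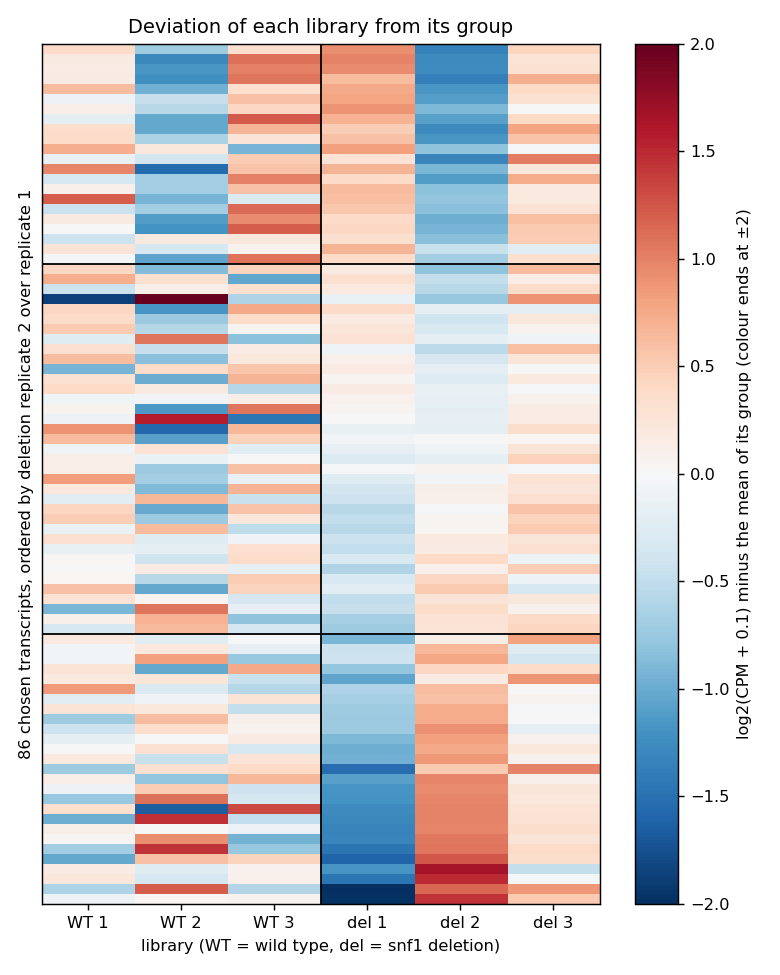
Deviation of each library from the mean of its own strain, as log2(CPM + 0.1), for the 86 transcripts (rows, from the low profile at the top to the high profile at the bottom) in the 3 wild type and 3 deletion libraries (columns). Replicate 2 is the lowest wild type library for 20 of 22 transcripts of the low profile and for 7 of 27 of the high profile. Among the other coding transcripts with at least 5 CPM in the deletion, that share is 53.0%.

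**Figure D4:**
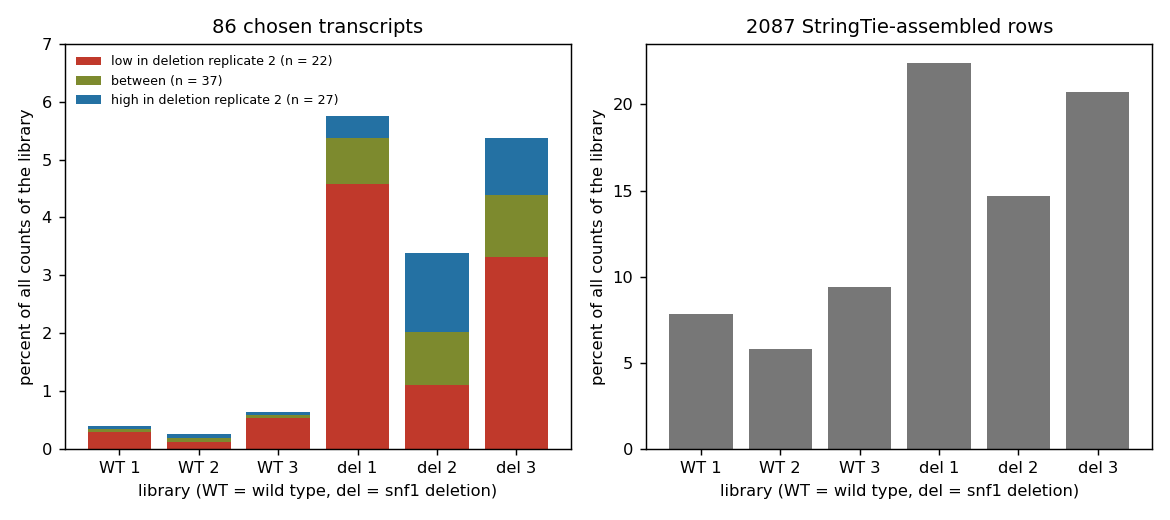
Percent of all counts in each of the 6 libraries (vertical axes from 0) held by the 86 chosen transcripts (left, stacked by profile) and by the 2087 StringTie-assembled rows (right). Both sums are higher in every deletion library than in wild type, which for the 86 the choice nearly fixes. Replicate 2 is the lowest library of each strain in both panels (0.255% and 3.39% left, 5.78% and 14.7% right).

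Some of the transcripts lie side by side. There were 11 pairs of neighbours, 4 in the gene order of CLIB89(W29) and 7 only in the row order of the count files. Of consecutive rows that are both placed in CLIB89(W29), 85.9% are also neighbours there. Each of the 7 pairs holds a transcript without such a place, so that share does not cover them. The 11 pairs include 21 transcripts (24.4%), and 7 pairs had the same profile. In the row order XM_501878.1, XM_501879.2 and XM_501880.1 follow each other. Their means were 57.2, 81.9 and 3.66 CPM in wild type and 626, 956 and 39.0 CPM in the deletion. YALI0_B23452g is followed by XM_501268.1, which went from 1.65 to 14.2 CPM. YALI0_E08387g is followed by XM_002143031.1, both named above for their ratios. YALI0_E27203g went from 36.5 to 615 CPM and XM_504458.1 beside it from 0.278 to 6.35 CPM. Whether the counting used strand is not given, and reads of overlapping or antisense partners cannot be told apart.

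For genes beside the group that did not pass the rule, calls were read from the edgeR fit over all features. Distances were taken from the 66 transcripts placed in CLIB89(W29), so neighbours of the 20 unplaced ones were not counted as such. Of 113 such neighbours 1 gene away in CLIB89(W29), 23 (20.4%) were higher and 17 (15%) lower by edgeR's quasi-likelihood test with Benjamini-Hochberg adjustment at 0.05. Of all 5527 other coding rows tested, which include these neighbours and rows without a place in CLIB89(W29), 12.9% were higher and 21.6% lower. At 2 genes away the shares were 17.1% and 23.4%, at 3 genes 14.0% and 23.0%, at 4 genes 8.42% and 22.1%, and at 5 genes 8.60% and 22.6%. The median log2 fold change was 0.08 for the nearest neighbours and -0.12 for the other coding rows. The difference between these shares was not tested. The 2 nearest-neighbour rises that were highest on the log2 scale were XM_501132.1 at 2.97, beside YALI0_B20328g, and XM_502281.1 at 2.72, beside YALI0_D01309g, both from wild type means under 1 CPM. YALI0_B23430g, beside YALI0_B23452g, rose from 28.4 to 211 CPM (log2 fold change 2.54, adjusted p = 5.63e-05 in edgeR's quasi-likelihood test). In the other direction, YALI0_C23859g fell from 3198 to 38.8 CPM, a log2 fold change of -6.73 (adjusted p = 1.59e-06 in the same edgeR test). These neighbours were picked for their values.

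**Figure D5:**
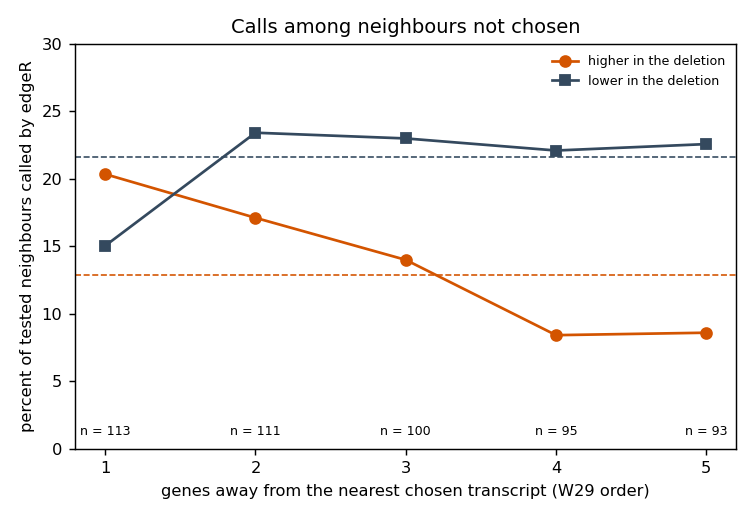
Percent of tested neighbours called higher or lower by edgeR (vertical axis from 0) at 1 to 5 genes from the nearest of the 66 chosen transcripts placed in CLIB89(W29). Dashed lines give the shares among all other coding rows. The share called higher is 20.4% at 1 gene and 8.60% at 5 genes, with 12.9% among the other coding rows.

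The 66 matched transcripts lay on all 6 chromosomes of CLIB89(W29). They made up 2.05% of the matched coding rows of chromosome A (12 of 585), 1.86% of chromosome B (16 of 858) and 1.19% of chromosome D (12 of 1005). The shares were 0.977% on chromosome E (13 of 1331), 0.738% on chromosome F (9 of 1220) and 0.491% on chromosome C (4 of 815). No test was made of these shares, and 20 of the 86 could not be placed.

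The limits of the rule cut through a continuous range. Just inside the ratio stood YALI0_F06468g at 8.05, XM_500728.1 at 8.09 and XM_506057.1 at 8.09, and just outside it YALI0_F00682g at 7.98, XM_499763.1 at 7.98 and XM_501214.1 at 7.93. Just inside the level stood YALI0_C08349g at 5.67 CPM, XM_504772.1 at 5.88 CPM and XM_504458.1 at 6.35 CPM. Just outside it stood XM_501132.1 at 4.49 CPM, XM_503078.1 at 4.46 CPM and XM_502182.1 at 3.57 CPM. With these included, 8 coding rows passed the ratio under the level, and 210 passed the level with a ratio between 4 and 8.

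In the fit over all 7244 features, all 86 were tested and all were called higher by edgeR's quasi-likelihood test, where 18.3% of features and 14.2% of coding rows were. The rule used the same contrast, so nothing is read from this count. Fitted log2 fold changes ran from 2.51 to 7.89 with a median of 3.32, beside 0.04 for all tested features. In the authors' deposited table, the 51 tied transcripts are all listed as higher, from 2.10 to 7.76 with a median of 3.35. Only genes past the authors' test of these libraries are in it, and the tie used its fold changes.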

How the data were processed

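RNA was sequenced from 3 wild type and 3 ∆Snf1 cultures, with a directional kit per the labels' protocols. Per the submitters' processing notes, the tools were HISAT2 2.2.1, Trimmomatic 0.38.0, DESeq2 2.11.40.7 and StringTie. Build, counting settings and strand handling are not given. Reads of near-identical copies and of overlapping genes may be misassigned. The authors deposited whole-number counts of 9235 features per library, and a table of 2840 genes with means of normalised signal, log2 fold changes and their standard errors (read as a score, since 1 stray value ends the column) and p-values. 

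CPM was computed from the library totals. Differences were fitted with edgeR 4.0.16 (limma 3.58.1, R 4.3.3): quasi-likelihood test, TMM scaling, filterByExpr (minimum count 10, minimum total 15), no covariates, Benjamini-Hochberg adjustment at 0.05. The script was tested on simulated data. DESeq2 1.42.0, other scalings and filters, each library left out and a replicate block were alternatives.

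Locus tags were tied to count rows by the mean, the standard error and a shrunken log2 fold change, on the same chromosome where known. A tie was mutual, with a distance under 30 and the next row at 5 or more and 3 times as far. It was kept where the gene's StringTie number lay within the numbers around the count row. Of 2109 genes with a coding tag, 1115 were tied. Before the check on numbers 1136 genes were tied, and with the chromosome wrong on purpose 107 were still tied, so some ties may be wrong. Accessions were matched to the RefSeq CLIB89(W29) table for lengths, order and chromosomes, with no coordinates used.

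The transcripts, lists and tests were chosen with earlier results of these data known. Named are the deleted gene, the 12 largest ratios, the 12 highest deletion means, the 5 largest coefficients of variation, 3 rows on each side of each limit, and the tag list. Lists by product and by sequence motif could not be run with the annotation used here.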

Additional observations from a re-analysis of the deposited data

How the results depend on the processing

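The count of transcripts kept by the rule moved with its limits, from 86 to 296 at a ratio of 4 and 29 at a ratio of 16. It was 23 when the lowest deletion library had to be 8 times the highest wild type library, with 0.1 CPM added to both. Leaving out each library in turn gave 83 to 104 transcripts, with 71 to 81 of the 86 among them. Adding 1 CPM in place of 0.1 kept 63. The share of counts held in the deletion was 4.84%, 2.84% without the 2 highest by CPM and 4.39% to 5.56% with a library left out. With a limit of 3 in place of 2, the low profile held 13 transcripts and the high profile 18. The 2685 calls over all features (1329 higher) became 1824 to 2717 with a library left out and 2987 with DESeq2. Scaling to the library total gave 2882 calls, 1946 of them higher. The block on replicate number gave 2754 (1412 higher, 1342 lower). Over coding rows the deviations of same-numbered libraries correlated at 0.02, 0.12 and 0.08. Whether these libraries are pairs is not given in the labels and was not tested. Between 84 and 86 of the transcripts were called under each setting. Over all features, 873 of 7292 were called higher in the setting with the fewest and 2005 of 7244 in that with the most. The rule used the same contrast, so nothing is read from the counts of chosen transcripts. XM_506056.1 lost its call with DESeq2 (adjusted p = 0.0912) and in edgeR without wild type replicate 1 (0.103), wild type replicate 3 (0.169) or deletion replicate 3 (0.0851). YALI0_F06468g lost it in edgeR without wild type replicate 1 (adjusted p = 0.0705) or 3 (0.0824). The 22 transcripts under 1 CPM in wild type held 0 to 64 counts per wild type library, so their ratios rest on few counts.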
